A study of Phalaenopsis equestris with 4 samples.

Results

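The contigs described here were abundant and nearly level across root, stem, leaf and flower of the butterfly orchid Phalaenopsis equestris. They were chosen from the deposited values themselves. A contig was a member where each of its 4 values was at least 50 FPKM (fragments scaled to transcript length and sequencing depth, by the usual definition) and its highest value was at most 1.5 times its lowest. Contigs that the authors matched to heat shock protein or R genes (plant disease resistance genes) were left out. Of 221878 contigs, 735 were at 50 FPKM or more in all 4 tissues. Of these, 33 were within 1.5-fold, 4.49%, and 32 remained after 1 heat shock contig was left out. The levels of the members and their narrow range were thus fixed by the choice and are a description, with no test.

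The plants were 3 years old by the labels, and each tissue had 1 library of total RNA. No treatment or genotype was named for any of the groups, and whether a library came from 1 plant or from several pooled plants was not stated. With 1 library per tissue no test was possible, no value has a replicate error and a library cannot be told apart from its tissue. The files pair contigs with gene models only for heat shock and R genes, so none of the 32 members has a gene name or a known role here, no sequence of them is given, and the tissue labels could not be checked against marker genes.

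Transcripts that stay at a similar level in many tissues usually come from genes for tasks common to all living cells, such as protein synthesis, protein turnover, the cytoskeleton and energy metabolism. Such genes are the usual pool from which reference genes for quantitative PCR are chosen, because a reference has to stay level where the genes of interest move. In RNA sequencing a level transcript is level only on a given scale between libraries, since each value is relative to the rest of its library. In bulk tissue a lower value also cannot distinguish fewer cells of a type from less RNA per cell.

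The scale between the libraries bears on each value below. The FPKM of all contigs summed to 684575 in stem, 695751 in flower and 895717 in root, against 7179834 in leaf. If every fragment were counted once, with full contig lengths of at least 200 nucleotides and division by the library total, a sum could not exceed 5000000, so at least 1 of these conditions did not hold for the leaf column, and which one is not known here. The steps between low values gave the number of reads behind the same FPKM relative to root, which was 1.59 for stem, 1.79 for flower and 0.0604 for leaf. The leaf value of a member therefore rested on the fewest reads if the 4 libraries were scaled alike. Read numbers of single contigs were not computed, since contig lengths were not used here. How often counting error alone moves a contig across the 1.5-fold limit was not tested.

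Most members had a mean below 200 FPKM. The mean over the 4 tissues was between 50 and 100 FPKM in 15 members, between 100 and 200 in 11, between 200 and 400 in 5 and above 400 in 1. The median member was at 103 FPKM in root and 99.2 in stem, with 128 in leaf and 102 in flower. Over all 735 abundant contigs the medians were 109, 103, 208 and 131 FPKM in the same order, so the members' medians were close to those in root and stem and lower in leaf and flower.

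Contig c11076_g1_i1 was the most abundant member. It stood at 646 FPKM in root and 549.9 in stem, with 524 in leaf and 642 in flower. Root and flower were nearly equal and highest, and leaf was lowest. It ranked 46th among all contigs in both root and stem, 69th in flower and 313th in leaf, so its place in leaf was lower although its FPKM was similar.

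Contig c139632_g1_i1 came next by level and had the narrowest range of the 735 abundant contigs. Its values were 316 FPKM in root and 313 in stem, with 339 in leaf and 322 in flower, a highest-to-lowest ratio of 1.08. Root, stem and flower were within a ratio of 1.03 of each other, and leaf was the highest.

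The next 3 by mean level each had a different shape. Contig c126683_g1_i1 was at 243 FPKM in root and 297 in stem, with 295 in leaf and 351 in flower. Root was the lowest and flower the highest, with stem and leaf together between them. Contig c152218_g3_i1 was at 242 FPKM in root and 240.0 in stem, against 333 in leaf and 307 in flower, so it formed a lower and an upper pair. Contig c154027_g2_i1 ran the other way in flower, at 194 FPKM, with 210.0 in root, 241 in stem and 264 in leaf.

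**Figure D1:**
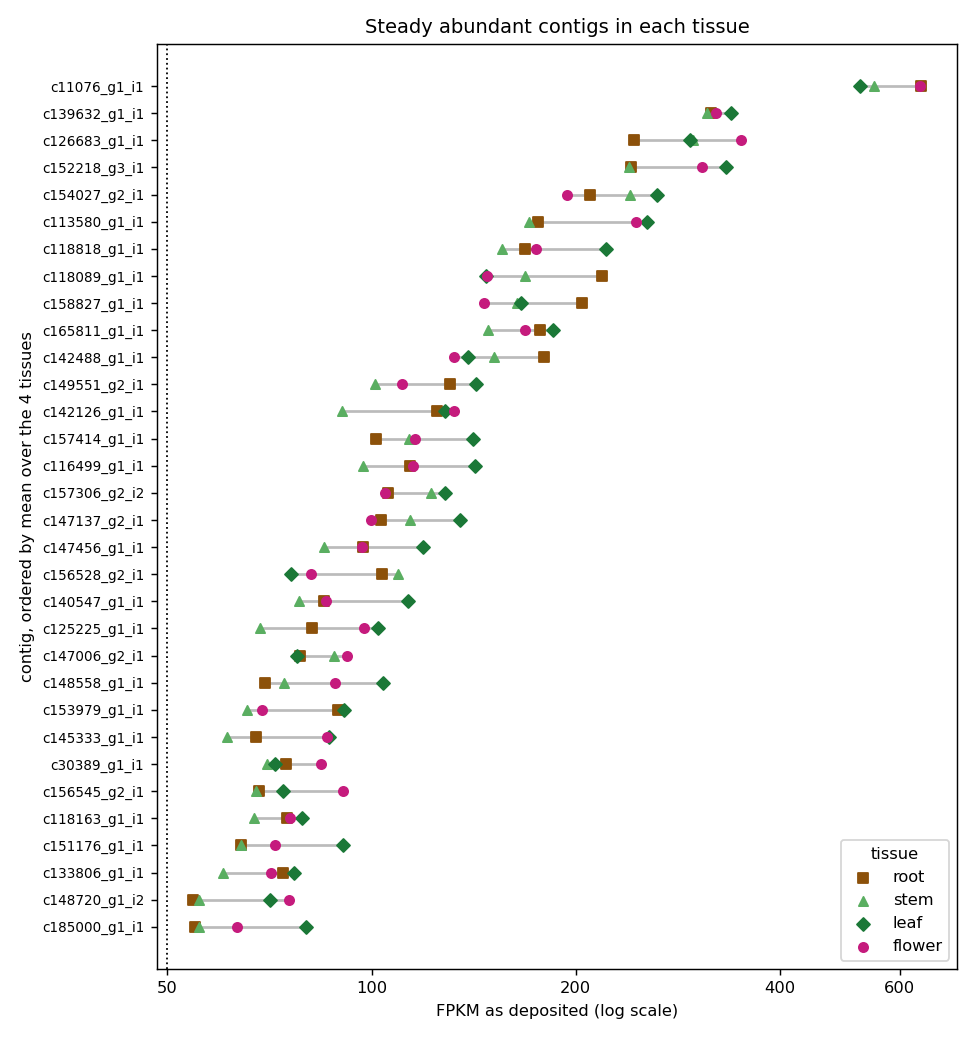
FPKM as deposited (log axis) of the 32 members in root, stem, leaf and flower, 1 library each, ordered by mean; the grey bar joins the lowest and the highest tissue and the dotted line is the 50 FPKM limit. Leaf, the dark green diamond, is at the right end in 21 of 32 contigs, and stem, the light green triangle, at the left end in 17.

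Within the allowed 1.5-fold the members were not evenly spread. The ratio of highest to lowest value was at most 1.1 in 1 member, at most 1.2 in 3, at most 1.3 in 8 and at most 1.4 in 18, with a median of 1.39. Over the 735 abundant contigs the median ratio was 2.92, with quartiles of 2.10 and 4.63. The members were therefore the lower end of a continuous range rather than a separate group, as the plot of ratio against level shows.

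After c139632_g1_i1, the narrowest ratios belonged to 4 contigs of moderate level. Contig c118163_g1_i1, with a ratio of 1.17, was at 75.2 FPKM in root and 67.2 in stem, with 78.9 in leaf and 75.8 in flower. Contig c147006_g2_i1, at 1.18, had 78.4 FPKM in root and 77.7 in leaf, with 88.2 in stem and 91.9 in flower. The first of these was low in stem alone, while the second was low in root and leaf. Contig c30389_g1_i1, at 1.20, was at 74.8 FPKM in root and 70.1 in stem, with 72.0 in leaf and 84.2 in flower, so only flower stood apart. Contig c157306_g2_i2, at 1.23, was at 106 FPKM in root and 105 in flower against 122 in stem and 128 in leaf.

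**Figure D2:**
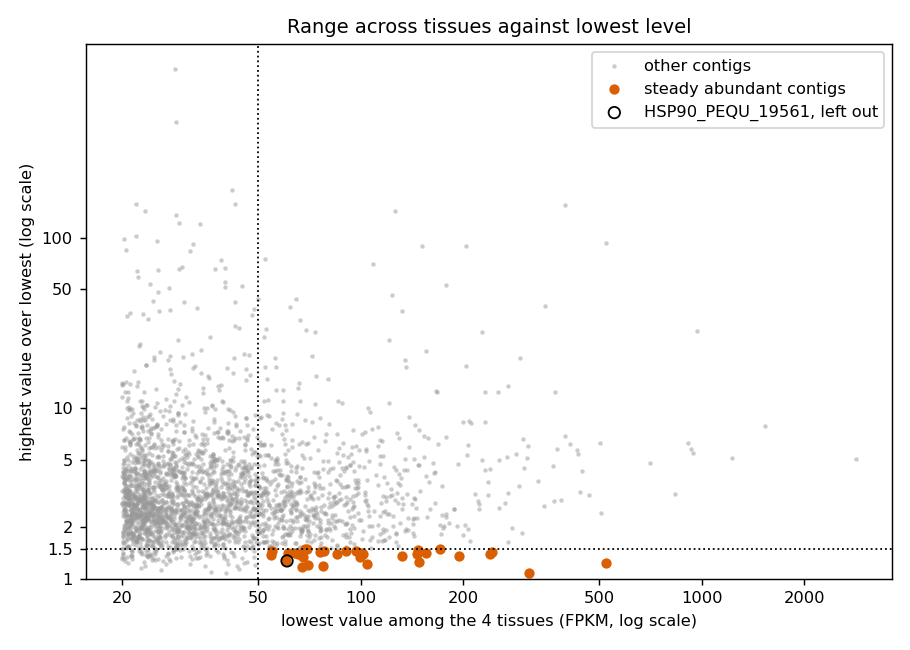
Ratio of the highest to the lowest tissue against the lowest tissue's FPKM (both axes log) for contigs at 20 FPKM or more in all 4 tissues; orange points are the 32 members, the open circle is the left-out heat shock contig and dotted lines are the 2 limits. The members fill the lower right corner without a gap to the other contigs, and c139632_g1_i1 is lowest at a ratio of 1.08.

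Contigs just inside and just outside the limits resembled each other. Nearest inside the ratio were c113580_g1_i1, c125225_g1_i1 and c148558_g1_i1, all at 1.49. Nearest outside were c16709_g1_i1 at 1.51 and c137521_g1_i1 and c139055_g1_i1, both also at 1.51. All but c148558_g1_i1, which was lowest in root, were lowest in stem, and all 6 were highest in leaf. For example, c113580_g1_i1 was at 176 FPKM in root and 171 in stem, with 255 in leaf and 245 in flower, while c16709_g1_i1 was at 123 in root and 107 in stem, with 162 in leaf and 129 in flower. At the lower limit, c148720_g1_i2 with 54.6 FPKM in root, c185000_g1_i1 with 55.0 in root and c133806_g1_i1 with 60.4 in stem were just inside. Contigs c124567_g1_i1, c144540_g2_i1 and c90968_g1_i1 met the ratio but not the level, with lowest values of 49.2 FPKM in flower, 48.6 in root and 48.6 in stem.

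The share of contigs within 1.5-fold lay between 3.75% and 6.33% at all levels examined. It was 4.49% of the 735 contigs at 50 FPKM or more, the heat shock contig included, and 4.54% of the 24591 contigs at 1 FPKM or more in all 4 tissues. Grouped by their lowest value, 4.12% of 14481 contigs from 1 to below 5 FPKM were within the ratio, 5.69% of 4483 from 5 to below 10, 4.72% of 2947 from 10 to below 20 and 4.78% of 1945 from 20 to below 50. Above the limit used here the shares were 3.75% of 507 contigs below 100 FPKM, 6.33% of 158 from 100 to below 200 and 5.71% of 70 from 200 upward. The last 2 shares rest on 10 and 4 contigs.

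Even within 1.5-fold the tissues had an order. Leaf was the highest tissue in 21 of the 32 members, flower in 6, root in 4 and stem in 1, and stem was the lowest in 17, root in 6, flower in 5 and leaf in 4. Leaf highest with stem lowest was the most frequent combination, in 14 members. Among all 735 abundant contigs leaf was highest in 67.6%, flower in 17.6%, root in 12.5% and stem in 2.31%, against 65.6%, 18.8%, 12.5% and 3.13% of the members. The order of the members by highest tissue was thus that of the abundant contigs as a whole. The lowest tissue was stem in 33.6%, root in 38.0%, flower in 25.7% and leaf in 2.72% of the 735, against 53.1%, 18.8%, 15.6% and 12.5% of the members. These differences in share were not tested, and the rule limits them.

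By the ratio of leaf to the next highest tissue, the widest margins of leaf were those of c140547_g1_i1 and c118818_g1_i1. Contig c140547_g1_i1 was at 113 FPKM in leaf, with 85.1 in root, 78.3 in stem and 85.6 in flower. Contig c118818_g1_i1 was at 222 FPKM in leaf against 156 in stem and 168 and 175 in root and flower. In both, the 3 tissues other than leaf lay close together. The same held for c116499_g1_i1, at 142 FPKM in leaf against 97.2 in stem, 114 in root and 115 in flower. Contig c147456_g1_i1 was at 119 FPKM in leaf and c151176_g1_i1 at 90.7, with the other tissues from 85.0 to 97.3 and from 64.2 to 72.0. In c185000_g1_i1 the leaf value was 80.0 FPKM, with 55.0 in root, 55.7 in stem and 63.4 in flower. In c147137_g2_i1 it was 135 FPKM, and stem, at 114, came next above root, at 103, and flower, at 99.9. Leaf thus stood clear of the other tissues in all of these, by less than the allowed 1.5-fold.

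In other members highest in leaf a further tissue was nearly as high. Leaf and flower formed the upper pair in c145333_g1_i1, at 86.6 and 86.1 FPKM, with 67.6 in root and 61.2 in stem. They did so with a wider step in c148558_g1_i1, at 104 and 88.3 FPKM against 69.7 in root and 74.2 in stem. Leaf and root formed it in c153979_g1_i1, at 91.1 and 89.1 FPKM, against 65.6 in stem and 68.8 in flower. Contig c165811_g1_i1 was lowest in stem alone, at 149 FPKM, with 168 in flower, 177 in root and 185 in leaf, and so was c133806_g1_i1, at 60.4 in stem and from 71.1 to 76.9 in the rest. The low value of stem was thus shared by 4 of these 5, while c148558_g1_i1 was lowest in root.

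Leaf was the lowest tissue in 4 members, among them c11076_g1_i1 and c147006_g2_i1 above. Contig c156528_g2_i1, the only one highest in stem, was at 109 FPKM there, 104 in root, 81.4 in flower and 76.0 in leaf. Contig c118089_g1_i1 was highest in root, at 219 FPKM, with 169 in stem, 147 in leaf and 148 in flower. Root was also highest in c158827_g1_i1, at 204 FPKM, with 164 in stem and 166 in leaf, but there flower, at 146, was the lowest. In the last pair, root alone stood above the rest.

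Flower was the tissue that stood apart in c156545_g2_i1, at 90.7 FPKM against 67.7 in stem and 68.4 and 73.9 in root and leaf. Stem stood apart in c142126_g1_i1, at 90.5 FPKM against 125 in root, 128 in leaf and 132 in flower, and c125225_g1_i1 was likewise lowest in stem at 68.5 FPKM, with 81.6 in root, 102 in leaf and 97.6 in flower. Root stood above the rest in c142488_g1_i1 also, at 179.5 FPKM against 152 in stem, 139 in leaf and 132 in flower. The lowest value was that of root in c157414_g1_i1, at 102 FPKM against 114 in stem, 141 in leaf and 116 in flower.

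Compared pair by pair as log2 ratios of the deposited values, the median member was 0.28 higher in leaf than in root, 0.33 higher in leaf than in stem and -0.12 for flower against leaf. For stem against root the median was -0.10, for flower against root 0.02 and for flower against stem 0.18. Leaf was above root in 25 of 32 members, against 84.5% of the 735 abundant contigs, and above stem in 26, against 91.0%. Flower was above leaf in 9 members, against 19.7%. Stem was above root in 11, against 45.9%, and flower above root in 19, against 55.5%. Flower was above stem in 25, against 67.9%. The differences in share were not tested, and the rule limits them. Over all 735 abundant contigs the 6 medians were 0.94, 0.99, -0.67, -0.07, 0.18 and 0.29, so the pairs with leaf were those in which the abundant contigs as a whole were furthest apart. On other scales between libraries the signs of 4 of the 6 medians of the members turned with median-of-ratios factors, and so did 4 when sums were set equal without component c157498. For the pairs with leaf the turn was fixed by the rule, since both scales lower leaf by more than 1.5-fold.

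Leaf was the tissue that most often took an abundant contig over the limit. Root and stem were within 1.5-fold of each other in 54.7% of the 735 contigs, stem and flower in 54.6%, and root and flower in 37.1%. Leaf was within 1.5-fold of flower in 37.1%, of root in 28.6% and of stem in 24.4%. Root, stem and flower were all within 1.5-fold in 171 contigs, 23.3% of the 735, the heat shock contig and other listed contigs included. In 138 of these 171, leaf was outside the ratio, and it was the highest tissue in 137 and the lowest in 1. The leaf value of the 171 contigs was 1.70 times the mean of the other 3 tissues by the median, with a 10th percentile of 1.21 and a 90th of 4.10. In the members this quotient ran from 0.774 to 1.38, with a median of 1.18.

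Which contigs counted as level therefore depended on the scale of the leaf library. Median-of-ratios factors, which bring the median contig among the 24591 at 1 FPKM or more in all 4 tissues to the same level, lowered leaf by 0.87 log2 units relative to root, by 0.83 relative to stem and by 0.82 relative to flower. After scaling with these factors 105 of 864 contigs at 50 FPKM or more, 12.2%, were within the ratio. Without heat shock and R gene contigs 101 met the rule. Of the 32 members 8 were among them, which is 25.0% of the members and 7.92% of the 101. Those 8 were c116499_g1_i1, c118818_g1_i1, c140547_g1_i1, c147137_g2_i1, c147456_g1_i1, c151176_g1_i1, c157414_g1_i1 and c185000_g1_i1, all of them highest in leaf as deposited. On that scale leaf was the lowest tissue in all 32 members, and their ratios ran from 1.37 to 2.70 with a median of 1.72. Leaf had to be lowest, since the factors lower it by more than the 1.5-fold that the rule allows. The 101 contigs, the 8 included, were all highest in leaf as deposited, at a median of 1.70 times the mean of the other tissues. That was fixed as well: to be within 1.5-fold after such a lowering of leaf, a contig must be highest in leaf before it.

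**Figure D3:**
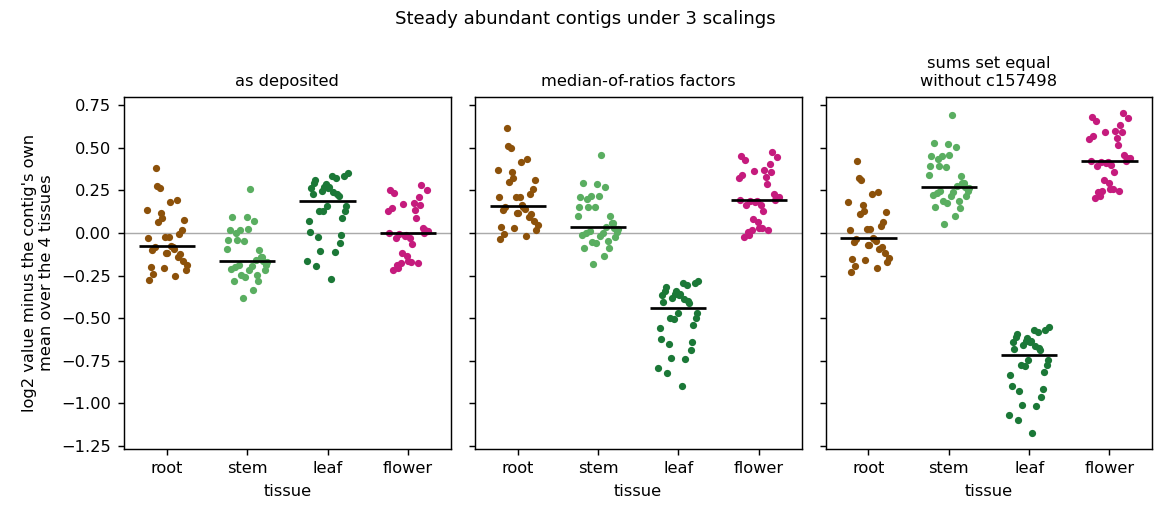
Each point is 1 of the 32 members: its log2 value minus its own mean over the 4 tissues, for values as deposited, after median-of-ratios factors, or after sums were set equal without component c157498; black lines are medians. The leaf points lie mostly above 0 as deposited and all below 0 with the other 2 scalings, which lower leaf by more than the 1.5-fold that the rule allows.

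With library sums set equal after leaving out c157498, an assembly component that holds most of the summed leaf FPKM, 79 of 804 contigs, 9.83%, were within the ratio. Without heat shock and R gene contigs 77 met the rule, and 0 of the members did. The 0 was fixed beforehand, since this scale lowers leaf by 1.34 log2 units relative to stem. A leaf value at most 1.5-fold above stem then falls more than 1.5-fold below it. The ratios of the members then ran from 1.90 to 3.64. With the full sums set equal, 4 contigs met the rule, 1.16% of 346. Again no member could, as leaf is lowered further still, and the ratios of the members ran from 7.80 to 15.1. With the 50 FPKM limit kept on the deposited values, 12.7% of the 735 contigs were within the ratio with median-of-ratios factors, 7.35% with sums set equal without c157498 and 0.272% with all sums set equal. On each of these scales leaf was the lowest tissue in all 32 members. The rule fixed this outcome, since each scale lowers leaf by more than the 1.5-fold that the rule allows.

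Dividing leaf values alone by a common number, with the other libraries and the 50 FPKM limit as deposited, showed how much room there was. Of the 726 abundant contigs outside the heat shock and R gene tables, 64 were within 1.5-fold at a divisor of 1.2, 91 at 1.5, 89 at 1.8 and 76 at 2. The count was highest at 1.5 among divisors from 0.5 to 4 in steps of 0.1. Of the 32 members, 29 stayed within the ratio at 1.2, 21 at 1.5, 7 at 1.8 and 0 at 2.

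**Figure D4:**
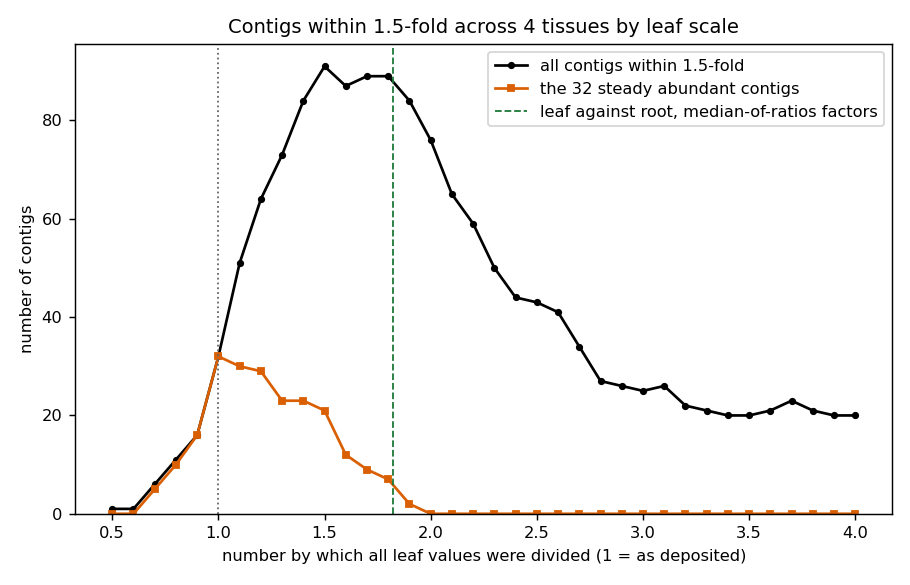
Number of contigs within 1.5-fold across the 4 tissues (vertical axis) after all leaf values were divided by the number on the horizontal axis; black, all 726 abundant contigs outside the heat shock and R gene tables, and orange, the 32 members. The black curve is at 32 as deposited and highest, at 91, for a divisor of 1.5, while the orange curve falls to 0 at 2; the dashed line is the median-of-ratios factor of leaf against root, 1.82.

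For a given contig the spread over root, stem and flower alone does not depend on the leaf scale. Which contigs were members did depend on it, and the rule limits this spread too. Without leaf, the members' ratio of highest to lowest had a median of 1.23 and quartiles of 1.15 and 1.37. The lowest was 1.03 in c139632_g1_i1 and the highest 1.48 in c118089_g1_i1. Median-of-ratios factors of stem and flower were within 0.05 log2 units of root, but the small median difference of flower against root still turned, to -0.020. Sums set equal without c157498 placed the deposited libraries at -0.39 log2 units for stem and -0.38 for flower relative to root. With that scaling the median member became 0.28 higher in stem than in root and 0.40 higher in flower than in root.

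The members together made up a small part of each library. Their FPKM summed to 4600 in root and 4309 in stem, with 4999 in leaf and 4739 in flower. This was 0.514% of the summed FPKM in root, 0.629% in stem and 0.681% in flower, but 0.0696% in leaf, or 0.289% in leaf without c157498. Among all contigs the median member ranked 599.5 in stem, 691 in root and 941 in flower, but 1609.5 in leaf.

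The assembly gives a property that the rule did not use. Trinity groups contigs into components, and within a component into genes whose contigs are treated as isoforms. The 32 members belonged to 32 different genes in 32 components. Of the members 30 were the only contig of their gene, 93.8%, against 582 of the 702 remaining abundant contigs outside the ratio, 82.9%. This difference was not tested. A further property was similar: 19 members were the only contig of their component, 59.4%, against 397 of the 702, 56.6%.

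The members with isoforms were level only as single contigs. Contig c148720_g1_i2, at 54.6 FPKM in root and 55.7 in stem, with 70.8 in leaf and 75.6 in flower, shared its gene with c148720_g1_i1. That isoform was more abundant, at 90.8 FPKM in root and 106 in stem, with 191 in leaf and 173 in flower, and the sum of both had a ratio of 1.80. Contig c157306_g2_i2 shared its gene with c157306_g2_i1, at 28.6, 45.4, 71.0 and 53.1 FPKM in the same order of tissues, and with c157306_g2_i3. The last was at 199 FPKM in flower and 0.361 in stem and was listed at 0 in root and leaf. The summed gene stood at 134 FPKM in root and 168 in stem, with 199 in leaf and 357 in flower, a ratio of 2.65. How reads shared between isoforms were divided was not stated, so the split between these contigs is uncertain.

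Of the members 13 shared a component with other contigs, and 12 of these components held 51 contigs of other genes. Of the 51 contigs 8 had a mean of at least 50 FPKM. None of these 8 was within 1.5-fold. The choice largely fixed this, since an unlisted contig within the ratio and at 50 FPKM or more in all tissues would itself be a member. Of the 8 contigs 7 were lowest in root and 4 highest in leaf, against 38.0% and 67.6% of the 735, which was not tested. The sets are unlike, since the 735 needed 50 FPKM in every tissue and the 8 only as a mean. Contigs c149551_g3_i1, c154027_g3_i1 and c154027_g3_i2, at 4.10, 13.3 and 11.1 FPKM in root, could not be among the 735. Contig c149551_g2_i1, a member at 130.5 FPKM in root and 101 in stem, with 142 in leaf and 111 in flower, had beside it c149551_g3_i1 at 1034 FPKM in flower, 30.5 in stem, 4.92 in leaf and 4.10 in root. The member c154027_g2_i1, whose flower value was its lowest, had beside it c154027_g3_i1 at 13.3 FPKM in root and 136 in stem, against 140 in leaf and 187 in flower. Beside c142126_g1_i1 stood c142126_g2_i1, at 61.3 FPKM in root and 113 in stem, with 216 in leaf and 242 in flower. A component can hold near-identical gene copies or fragments of 1 gene, which cannot be told apart here. Of the 13 component sums 5 were within 1.5-fold: c126683, c145333, c147006, c147137 and c157414.

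**Figure D5:**
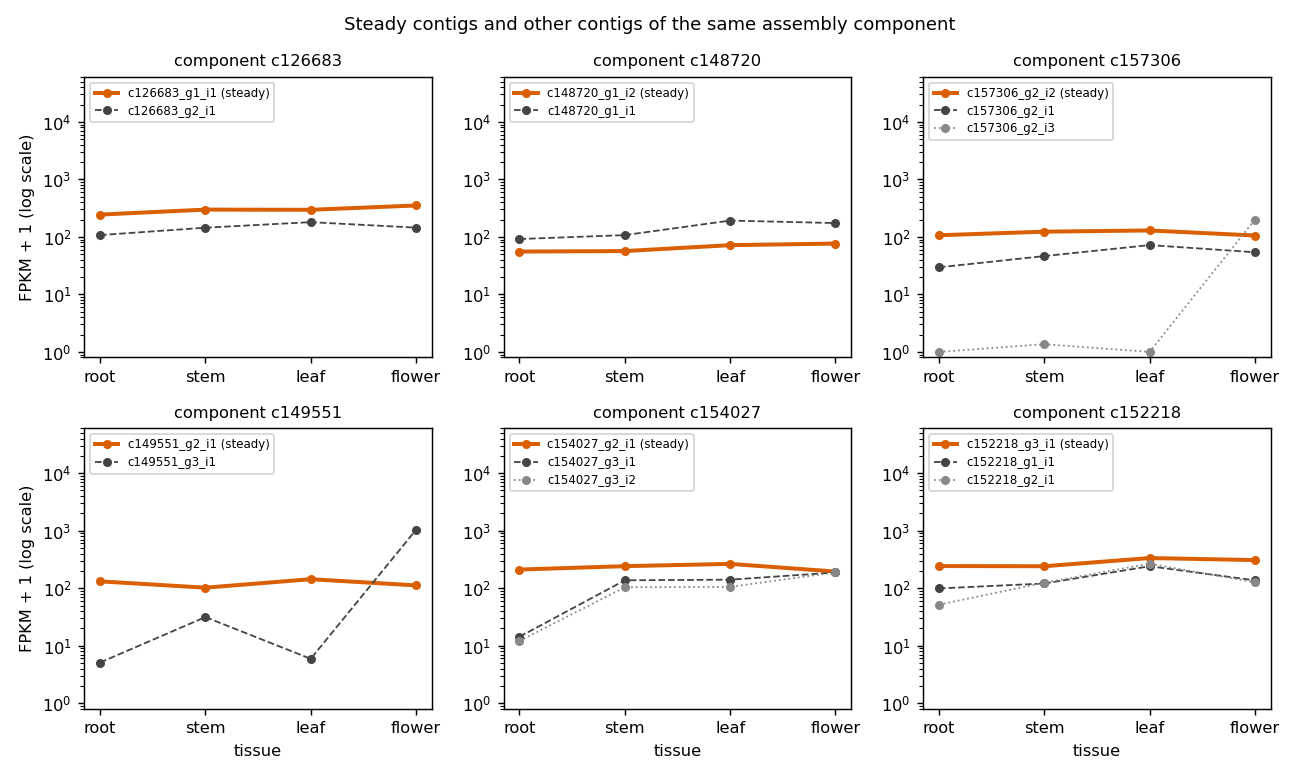
FPKM + 1 (log axis) in the 4 tissues, 1 library each, for 6 members (orange) and other contigs of their assembly component (grey, dashed or dotted). The orange lines are flat, while c149551_g3_i1 and c157306_g2_i3 rise to 1034 and 199 FPKM in flower and the c154027_g3 contigs are low in root.

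One component tied a member to a named gene family. Contig c126683_g2_i1, in the same component as the member c126683_g1_i1, was matched by the authors to HSP90_PEQU_14751, a model of HSP90, the chaperone that helps fold and stabilise signalling proteins. It was at 107 FPKM in root and 144 in stem, with 180 in leaf and 144 in flower, a ratio of 1.68. The member itself was not matched to a gene model in the heat shock table, so whether it is part of the same gene is not known.

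The contig left out of the members by name was also an HSP90 model. Contig c152815_g1_i1, matched to HSP90_PEQU_19561, was at 66.3 FPKM in root and 60.9 in stem, with 77.5 in leaf and 61.1 in flower, with a ratio of 1.27. Leaf was highest and stem lowest, the combination most common among the members. Of 6 HSP90 contigs 5 were at 50 FPKM or more in all tissues and this 1 was within the ratio. Of 8 contigs of HSP70, a chaperone family that binds unfolded proteins, 4 reached the level and 0 of those the ratio; HSP70_PEQU_36873 had a ratio of 1.35 but a level of 31.6 to 42.7 FPKM. None of 13 HSP20 and 17 R gene contigs reached 50 FPKM in all tissues or was within the ratio. Their lowest ratios were 2.52 and 2.54. Of all 221878 contigs 735 reached that level, and 4.49% of these were within the ratio. Of the 24591 at 1 FPKM or more in all tissues 4.54% were within it. With shares this low and lists this short, the counts were not read as a trait of any family.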

How the data were processed

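Root, stem, leaf and flower gave 1 library of total RNA each, which was sequenced on an Illumina HiSeq 1500, per the labels and the series' design text. Per the same text the reads were assembled de novo with Trinity into contigs of at least 200 nucleotides. edgeR and DESeq stand in the submitters' processing notes with neither a version nor a role. Expression was deposited as FPKM, per the file headers and 1 table's name. Not given in the sources used here are the mapper, the estimator and the lengths. For each match of a gene model to a contig the 2 smaller tables also hold a deposited bit score, which was not used. Since FPKM is not a count, no count model was fitted.

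Each column was taken as the tissue its header names. Ratios were taken on FPKM as deposited, with no pseudocount, in Python 3.11.15 with pandas 2.3.3. Median-of-ratios factors were computed over contigs at 1 FPKM or more in all tissues. Relative read numbers were taken from the peaks of ratios of low values in genes of 1 contig. These steps were run on simulated data, as a check of the calculation only. The level contigs placed there met the rule by design. The simulated read numbers were set close to those found here, so the runs do not show how exact the results are. The members and lists were chosen with earlier results of these data known. Contigs were named by fixed rules of level, ratio and highest or lowest tissue. No member could pass the rule with sums set equal without c157498, so none passed on both other scalings. No gene held more than 1 member. The 8 members level with median-of-ratios factors, the members that no rule named, the isoforms of c157306_g2 and the contigs of shared components were named after their values were seen. No list of reference or marker genes could be used, since no names were paired with these contigs.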

Additional observations from a re-analysis of the deposited data

How the results depend on the processing

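The number of level abundant contigs, 32, was within 1.5 times its value with a pseudocount of 1 FPKM (32) or 5 FPKM (38). The same held with the contigs of each Trinity gene summed (42). These settings could change little among the members. A pseudocount can only narrow a ratio, and 30 of the 32 members were the only contig of their gene. The count was 7 at the tighter ratio tried and 157 at a ratio of 2. It was 124 at a limit of 20 FPKM, 14 at 100 FPKM and 1228 with no limit beyond a value above 0. It was 101 with median-of-ratios factors, 77 with sums set equal without c157498 and 4 with all sums set equal. In alternatives chosen after seeing the data, with the 50 FPKM limit on deposited values, these 3 became 90, 52 and 2, and leaf divided by 1.2, 1.5 and 2 gave 64, 91 and 76. Leaving out 1 library gave 103 to 169, highest without leaf; fewer libraries make the rule easier to meet.

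Over the same 32 contigs, the numbers highest in root, stem, leaf and flower were 13, 4, 0 and 15 with median-of-ratios factors and 0, 7, 0 and 25 with sums set equal without c157498, against 4, 1, 21 and 6. With median-of-ratios factors the median log2 difference turned to -0.59 for leaf against root, -0.49 for leaf against stem, 0.71 for flower against leaf and -0.020 for flower against root. With sums set equal without c157498 it was -0.67, -1.01, 1.21 and 0.40 for these pairs and 0.28 for stem against root. Both scalings lower leaf by more than the 1.5-fold that the rule allows. Leaf could therefore be highest in no member, and the pairs with leaf had to turn. Flower against stem stayed between 0.17 and 0.18 in all settings run. This pair could hardly move, since both scalings gave stem and flower nearly the same factor. The factors were 1.147 and 1.145 by median-of-ratios, and 1.351 and 1.342 with sums set equal without c157498. No paired analysis was possible because each tissue has 1 library. The cause of the differences between settings was not tested further.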

Other observations

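Some genes met the rule when their isoforms were added up, although none of their contigs did. With the FPKM of all contigs of a Trinity gene summed, 42 genes met the rule, 30 of them genes of a member that has no other contig, and 12 further genes without a member. In 11 of the 12 the contig with the highest mean was below 50 FPKM in at least 1 tissue, and in 3 it was itself within 1.5-fold and missed only the level. Gene c155306_g3, with 11 contigs, had the narrowest summed ratio of these 12, at 1.04, with 82.3 FPKM in root and 80.1 in stem, with 82.1 in leaf and 83.6 in flower. Its most abundant contig, c155306_g3_i8, was at most at 26.1 FPKM, in root. Gene c151356_g3 had the highest sum, with 361 FPKM in root and 325 in stem, with 313 in leaf and 313 in flower over 11 contigs. Within it, c151356_g3_i7 was at 102 FPKM in root and 24.0 in flower, while c151356_g3_i6 was at 36.3 in root and 111 in flower.

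In 2 of the 12 genes the contig with the highest mean had a range above 10-fold between tissues, or a value listed at 0. Exchanges between isoforms also occurred in others, as in c151356_g3. Contig c125478_g1_i1, which did not have the highest mean of its gene, was at 73.0 FPKM in leaf and 5.07 in flower. The other isoform of that gene, c125478_g1_i2, was at 80.3 FPKM in leaf and 111 in flower. Gene c156460_g1 summed to 66.2 FPKM in root and 58.3 in stem, with 61.7 in leaf and 84.4 in flower. Its contig c156460_g1_i1 was at 73.3 FPKM in flower, 30.9 in stem and 11.3 in root and was listed at 0 in leaf, c156460_g1_i2 was highest in leaf at 37.6, and c156460_g1_i3 was highest in root at 33.9. Gene c155809_g3 summed to between 58.0 FPKM in leaf and 84.0 in root; c155809_g3_i5 was at 53.8 FPKM in root and 2.17 in leaf, and c155809_g3_i4 was at 26.1 in flower and 1.80 in root. These genes were chosen after their values were seen, and how the authors divided reads between isoforms is not known here.

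Of the contigs level with median-of-ratios factors, c136306_g1_i1 had the highest mean, with 507 FPKM in root and 556 in stem, with 1240 in leaf and 668 in flower as deposited. Its ratio was 2.44 before scaling, 1.34 after scaling with the factors and 1.71 after sums were set equal without c157498. The 101 contigs level with median-of-ratios factors and the 77 level with sums set equal without c157498 shared 24, which is 23.8% of the first and 31.2% of the second.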
